A study of Mus musculus with 8 samples.

Results

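The cadherins with numbered names and the protocadherins were described in sorted single cells of the mouse frontal isocortex at postnatal day 7. Members were all genes of the deposited count tables whose symbol is Cdh followed by digits or begins with Pcdh. There were 92 among the 17836 genes of the Drd1a-tdTomato table and 77 among the 15769 genes of the golli-τ-eGFP table, and all 77 were also in the first table. Cells were sorted for Drd1a-tdTomato (D1Tom below), a reporter of the dopamine D1 receptor gene on a bacterial artificial chromosome, or for golli-τ-eGFP (GTE below), a reporter transgene driven by golli promoter sequence. Control animals were Foxp2 flox/flox littermates without Cre, and conditional knockout animals (cKO) were Emx1-Cre; Foxp2 flox/flox. All animals of a sort carried its reporter, all carried floxed Foxp2, and all lines had been backcrossed to C57BL/6J. Emx1-Cre acts in the dorsal telencephalic lineage, which gives rise to cortical excitatory neurons and many cortical glia, and cells of other origin keep the floxed alleles. Each sort had 2 control and 2 cKO libraries, 8 in all. D1Tom control 1 and cKO 1 were prepared as batch 1 and D1Tom control 2 and cKO 2 as batch 2, and only D1Tom cKO 2 came from a male in that sort. In GTE only cKO 2 came from a female, and its batches are not known. The study asked whether cell type composition and gene expression differ between the genotypes.

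Cadherins are calcium-dependent adhesion proteins of the cell surface. Classical cadherins, of type I and type II, bind like partners on the neighbouring cell and are tied to the actin skeleton through catenins, and type II cadherins are known for patterns that differ between cortical layers and cortical areas. The clustered protocadherins of the alpha, beta and gamma groups are chosen from arrays of promoters, so that single neurons carry different sets, and they serve the recognition of self between branches of one cell. Delta protocadherins, also called non-clustered, act in axon growth, cell sorting and synapse formation. Cdh13 lacks the usual intracellular part and is held at the membrane by a lipid anchor, and Pcdh15 is a tip-link protein of hair cells that is also known as a gene of oligodendrocyte precursors.

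4 type II cadherin genes carry the contrast between projection neurons described below, Cdh9 and Cdh18 in one population and Cdh8 and Cdh12 in another. For that reason the 250 bases upstream of an annotated transcription start of each are shown. The sequences are RefSeq's, in the build GRCm38.p6, on the strand of the gene, at chr15:16728665-16728914 (+) for Cdh9, chr15:23036213-23036462 (+) for Cdh18, chr8:99416472-99416721 (-) for Cdh8 and chr15:21111202-21111451 (+) for Cdh12. All 4 windows lie inside the RefSeq gene spans given below, so they precede starts within the genes and not the outermost starts. RefSeq and GENCODE place some of these starts differently. Capitals mark the letters CCAAT or their complement ATTGG, a box searched for after the sequences had been seen.
Cdh9: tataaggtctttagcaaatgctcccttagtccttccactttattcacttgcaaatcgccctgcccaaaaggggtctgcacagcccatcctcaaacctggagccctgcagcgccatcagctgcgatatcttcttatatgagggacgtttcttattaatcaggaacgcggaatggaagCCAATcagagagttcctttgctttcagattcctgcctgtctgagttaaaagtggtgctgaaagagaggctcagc
Cdh18: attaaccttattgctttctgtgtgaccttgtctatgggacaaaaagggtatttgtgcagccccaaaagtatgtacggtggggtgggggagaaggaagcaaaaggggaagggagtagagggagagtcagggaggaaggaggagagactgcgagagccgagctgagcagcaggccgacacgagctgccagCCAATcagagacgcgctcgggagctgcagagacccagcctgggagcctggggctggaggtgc
Cdh8: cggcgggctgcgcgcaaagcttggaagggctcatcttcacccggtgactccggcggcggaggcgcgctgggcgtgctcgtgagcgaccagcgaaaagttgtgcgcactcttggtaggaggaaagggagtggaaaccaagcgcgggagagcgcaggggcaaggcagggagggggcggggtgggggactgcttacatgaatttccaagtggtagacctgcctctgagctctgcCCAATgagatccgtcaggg
Cdh12: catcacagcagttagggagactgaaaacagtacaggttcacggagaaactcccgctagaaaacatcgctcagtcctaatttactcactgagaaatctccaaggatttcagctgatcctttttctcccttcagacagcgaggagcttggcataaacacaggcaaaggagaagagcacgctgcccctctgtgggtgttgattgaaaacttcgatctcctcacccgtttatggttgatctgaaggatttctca
The windows of Cdh9, Cdh18 and Cdh8 hold the box and that of Cdh12 does not, which leaves other starts of these genes undescribed. Among 25 such windows of 22 members, 15 held CCAAT on either strand, against 33.8% of 32851 windows of the same length over all genes. The forkhead letters TGTTTAC, searched on both strands, were in 0 of the 25 windows, against 3.17% of all windows. The T-box letters AGGTGT were in 1 of 25, against 11.8% of all windows. A match is a description of letters and not a binding site, and the windows of the clustered protocadherins were not analysed here.

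The libraries differed in depth and in makeup. D1Tom libraries held 2395 to 3206 cells and 27323298 to 36379194 counts, and GTE libraries held 1440 to 3948 cells and 4878370 to 6092396 counts. Foxp2, the targeted gene, was at 36.3 and 39.1 counts scaled to equal library totals (CPM) in D1Tom control libraries against 26.5 and 19.4 CPM with Cre. In GTE it was at 9.52 and 46.9 CPM in control libraries against 25.4 and 7.43 with Cre, so the GTE groups overlapped. Reads outside the floxed part of the gene cannot show its loss. Cells of neuron-like types (projection neuron-, interneuron- and Cajal-Retzius-like) made up 27.3% and 30.02% of the D1Tom control libraries and 21.8% and 12.8% of the cKO libraries. In GTE they made up 0.376% to 2.90%, while glia-like cells (astrocyte-, oligodendrocyte precursor- and oligodendrocyte-like) were 71.4% of cKO 1 and 21.7% to 26.3% of the other 3 libraries. Several large GTE clusters stayed unnamed, among them cluster 1 with Mef2c and Tubb3 and cluster 3 with Neurod6 and Stmn2 among their leading genes. Unnamed D1Tom clusters, such as cluster 7 with Oprk1 and Slc30a3, were not counted either. The shares of both sorts thus cover named clusters only. Between 4 and 27 cell barcodes were shared by any pair of libraries of a sort. Nothing in the labels gives separate animals beyond the 2 replicates per genotype, so each genotype p-value measures the spread between these libraries. In the comparisons of cell types the library is a block. Their p-values therefore measure the spread left over all types and libraries after library differences are removed.

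In the D1Tom cells the non-clustered protocadherins held most of the members' counts. The 5 delta-2 protocadherins summed to 85163 counts, the 4 delta-1 protocadherins to 49140, the 13 type II cadherins to 40000 and the 5 type I cadherins to 31637. Pcdh17 led with 38604 counts, followed by Pcdh10 with 31640, Cdh2 with 24114 and Pcdh7 with 19861. The clustered protocadherins had fewer assigned counts, with 10431 over 21 beta members, 5821 over 22 gamma members and 856 over 14 alpha members. Cdh1, Cdh3, Cdh16, Cdh17 and Cdh26 had 2 to 5 counts each, Cdh23 had 20, and Pcdhac1 had none. All 22 gamma members and 13 alpha members share their last exon with other members in the GENCODE M21 annotation, and Pcdhb21 and Pcdhb22 overlap, so reads from the 3′ end cannot be assigned to single members there. Their single-gene values are uncertain for that reason. Such reads may also be missing from the alpha and gamma sums, so these sums do not rank the groups by expression. Counts are not corrected for gene length, so they do not rank one gene's expression against another's.

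Cells were clustered without the members, and clusters named from marker lists that contain none of them are called "-like". 12 D1Tom types had 30 or more cells in every library. These were astrocyte-like (2827 cells), oligodendrocyte precursor-like (1673), upper layer-like (730), caudal interneuron-like (668), dividing-like (618), neuroblast-like (515), layer 6 corticothalamic-like (477), layer 5 pyramidal tract-like (275) and Cajal-Retzius-like (218), and the unnamed clusters 2, 3 and 7. Named types below are these 9, and types with fewer cells are described after them. Ctgf and Nxph4, markers of layer 6b, were also among the leading genes of the layer 6 corticothalamic-like cluster. Cluster 3 had a median count per cell of 0.388 of its libraries' own median, and cluster 2 was led by mitochondrial genes. Each type was compared with the mean of the other 11 by edgeR's quasi-likelihood test on counts summed per library and type, with the library as a block. The types come from other genes of the same cells, which the adjusted p-values do not take into account. Of the 92 members, 46 passed the filter on low counts. All 46 were called in at least 1 type at an adjusted p under 0.05, and 42 were higher in at least 1 of the 9 named types. In single types 29.9% to 61.0% of all 12268 genes were called. The share of all genes called in at least 1 type was not counted, so the 46 and 42 have no background. The 46 passed partly because they were high in some type, so these counts say nothing of the members that did not pass. Library values below are in CPM of the type and are given in the order control 1, control 2, cKO 1, cKO 2.

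**Figure D1:**
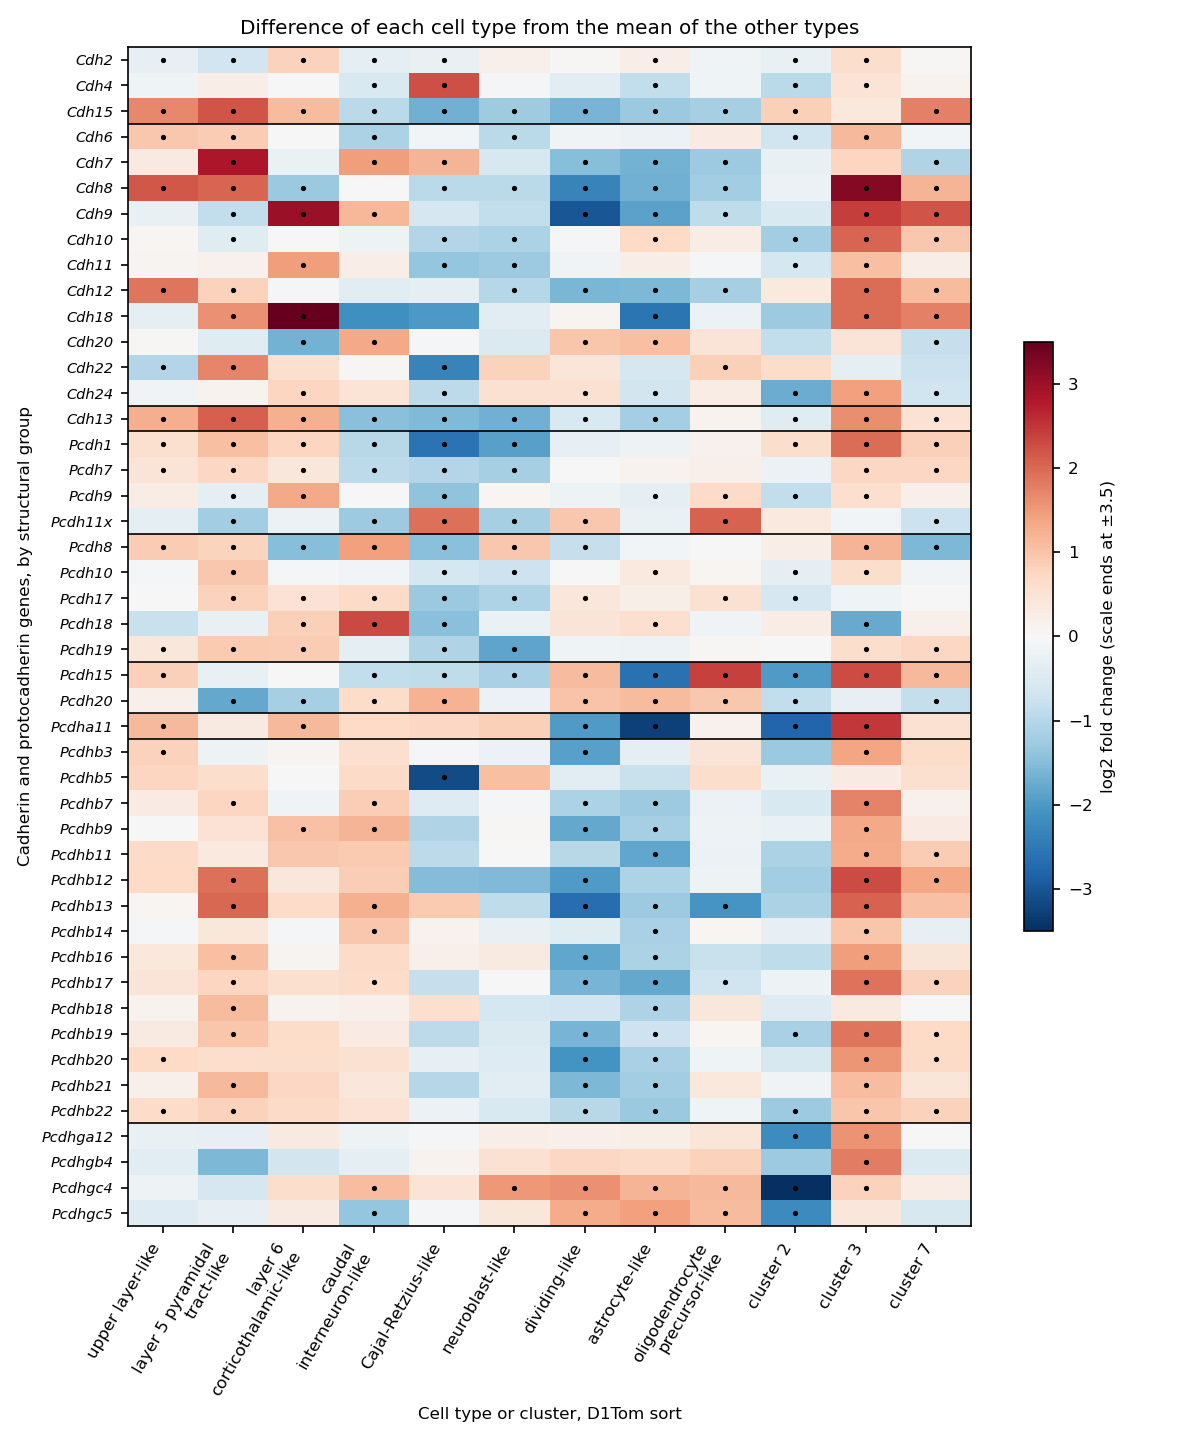
Log2 fold change of each of the 46 tested members (rows, by structural group) in each of the 12 D1Tom types (columns) against the mean of the other types, with a black dot where the edgeR adjusted p was under 0.05 and colours ending at 3.5 either way. Of the 15 beta protocadherins, 9 were higher in layer 5 pyramidal tract-like cells and 13 in cluster 3, while 12 were lower in astrocyte-like and 11 in dividing-like cells.

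Layer 6 corticothalamic-like cells stood out by Cdh18, Cdh9 and Cdh11, 3 type II cadherins. In these cells 15 of 46 members were higher and 4 lower, against 17.7% of all 12268 genes higher and 12.2% lower. Cdh18 was at 13.1, 13.1, 10.7 and 9.49 CPM, and every one of these 4 values lay above all values of the other 11 types. Its log2 fold change was 3.51 (SE 0.36, adjusted p 1.05e-10). Cdh9 was at 99.6, 40.4, 72.8 and 44.6 CPM, above every library of the other 8 named types, with a log2 fold change of 3.02 (SE 0.19, adjusted p 3.16e-17). Cdh11 was at 222, 178, 235 and 192 CPM and had a log2 fold change of 1.47 (SE 0.10, adjusted p 1.99e-15). None of the other 8 named types reached these levels of Cdh9 or Cdh11 in any library, whereas clusters 3 and 7 reached those of Cdh9 and cluster 3 those of Cdh11. Medial interneuron-like cells, with fewer cells and described below, reached higher levels of Cdh9. Cdh9 lies at chr15:16728550-16857138, Cdh18 at chr15:22548898-23477491 and Cdh11 at chr8:102632095-102785493 (RefSeq, GRCm38). The delta-1 protocadherin Pcdh9 was highest here among named types, at 305, 303, 239 and 247 CPM, with a log2 fold change of 1.32 (SE 0.12). The same held for N-cadherin, Cdh2, the main type I cadherin of neural tissue, at 362, 305, 351 and 310 CPM and a log2 fold change of 0.80 (SE 0.09). Cdh8 was lower in these cells, at 3.73, 12.5, 9.77 and 5.69 CPM (log2 fold change -1.31, SE 0.26).

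Upper layer-like cells carried Cdh8 and Cdh12. Here 14 members were higher and 2 lower, against 23.0% and 19.2% of all genes. Cdh8 was at 69.4, 53.7, 65.6 and 73.5 CPM (log2 fold change 2.18, SE 0.14, edgeR adjusted p 5.72e-16). Cdh12 was at 37.0, 38.3, 36.8 and 28.5 CPM (log2 fold change 1.87, SE 0.17, adjusted p 8.18e-12), above every library of the other 8 named types. Cdh15, known as M-cadherin of muscle, followed at 32.6, 42.2, 28.8 and 15.6 CPM (log2 fold change 1.69, SE 0.21, adjusted p 9.5e-09). The Cdh8 values of upper layer-like and layer 5 pyramidal tract-like cells overlapped, with 81.8, 60.2, 56.8 and 60.8 CPM in the latter, so their order is not set by these libraries. Cdh12 is a type II cadherin gene at chr15:20448878-21598421 and Cdh8 one at chr8:99024471-99417666.

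Layer 5 pyramidal tract-like cells had the most members higher among the named types, 23 of 46 with 6 lower, against 25.8% and 24.2% of all genes. Cdh7, a type II cadherin, was at 30.4, 18.1, 86.7 and 37.9 CPM, and its log2 fold change was 2.84 (SE 0.29, edgeR adjusted p 4.26e-11). The 2 controls lay below both cKO libraries for this gene, and control 2, at 18.1 CPM, was within reach of caudal interneuron-like cells, whose highest library had 20.4 CPM. Cdh15 was at 49.2, 33.8, 61.6 and 33.9 CPM (log2 fold change 2.19, SE 0.21, adjusted p 1.79e-11). Cdh13, also known as T-cadherin (chr8:118140017-119324929), was at 337, 313, 413 and 314 CPM, above every library of the other 11 types (log2 fold change 2.09, SE 0.11, adjusted p 1.46e-19). It was also higher in upper layer-like cells (log2 fold change 1.27, SE 0.12) and layer 6 corticothalamic-like cells (1.24, SE 0.12), and lower in caudal interneuron-like, neuroblast-like, Cajal-Retzius-like and astrocyte-like cells, where no library passed 46.8 CPM. Pcdh7, a delta-1 protocadherin, was at 197, 280, 196 and 271 CPM (log2 fold change 0.72, SE 0.12), and overlapped with layer 6 corticothalamic-like cells. The delta-2 protocadherin Pcdh10 was at 503, 457, 570 and 406 CPM (log2 fold change 0.96, SE 0.11), above the other 8 named types in every library. Pcdh17, another delta-2 protocadherin, was at 458, 562, 425 and 482 CPM (log2 fold change 0.80, SE 0.13), while caudal interneuron-like cells reached 541 CPM, so these types overlapped.

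Cajal-Retzius-like cells had few members above the mean. 4 were higher and 18 lower, against 17.7% and 15.8% of all genes, or 33.5% either way. Cdh4, R-cadherin of type I, was at 240, 173, 204 and 139 CPM (log2 fold change 2.25, SE 0.14, edgeR adjusted p 1.02e-17), above every library of the other 11 types, of which the highest had 104 CPM. The delta-1 protocadherin Pcdh11x was at 328, 205, 310 and 200 CPM (log2 fold change 1.93, SE 0.18, adjusted p 3.96e-12). Pcdh20 was at 38.5, 21.9, 30.3 and 21.8 CPM (log2 fold change 1.21, SE 0.24, adjusted p 6.39e-05). Pcdh7, Pcdh9, Pcdh10, Pcdh17 and Pcdh19 were all lower in these cells, with log2 fold changes of -1.01, -1.40, -0.63, -1.29 and -1.05.

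Caudal interneuron-like cells were marked by the delta-2 protocadherin Pcdh18. It was at 35.0, 30.7, 41.9 and 27.5 CPM, and all 4 values lay above those of the other 11 types (log2 fold change 2.30, SE 0.25, edgeR adjusted p 2.9e-10). In all 13 members were higher and 10 lower, against 20.5% and 17.0% of all genes. Cdh7 was higher by a log2 fold change of 1.46 (SE 0.34, adjusted p 0.000703), at 20.4, 9.40, 11.7 and 19.9 CPM. Pcdh8, also known as arcadlin and induced by neuronal activity, was at 81.0, 64.6, 56.5 and 58.8 CPM (log2 fold change 1.43, SE 0.18, adjusted p 2.57e-08). Neuroblast-like cells, which had only 50 and 30 cells in the control libraries against 243 and 192 in the cKO libraries, had 2 members higher and 14 lower, against 23.2% and 21.2% of all genes. The higher ones were Pcdhgc4 (log2 fold change 1.53, SE 0.25) and Pcdh8 (0.94, SE 0.22). Pcdh8 there was at 89.4, 17.6, 76.3 and 24.7 CPM, so batch 1 lay above batch 2, and without cKO 1 its adjusted p was 0.209.

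**Figure D2:**
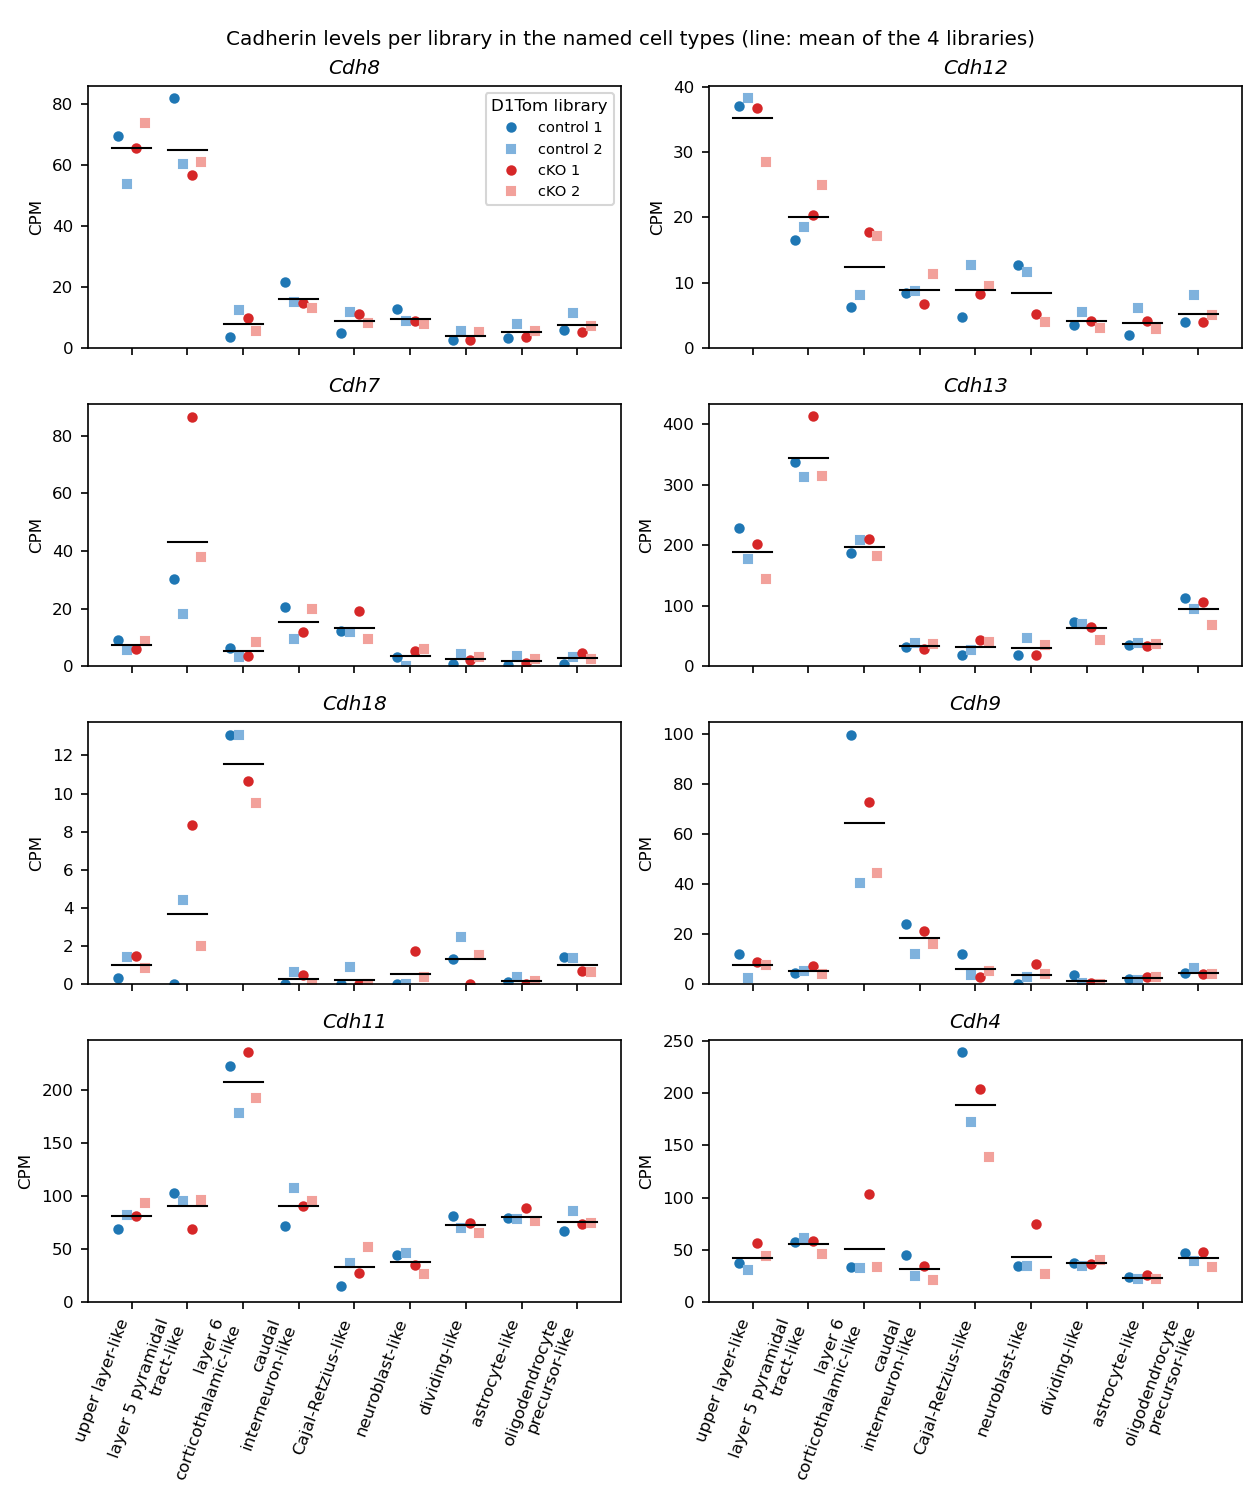
Levels of 8 cadherins in CPM (vertical axes) in the 4 D1Tom libraries of each of the 9 named types (horizontal axes), 1 point per library. Cdh18 and Cdh9 peak in layer 6 corticothalamic-like cells, Cdh12 in upper layer-like cells, Cdh13 in layer 5 pyramidal tract-like cells and Cdh4 in Cajal-Retzius-like cells, where Cdh4 was at 139 to 240 CPM.

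Oligodendrocyte precursor-like cells carried Pcdh15 and Pcdh11x. Among the 46 members 8 were higher and 7 lower, against 22.7% and 14.4% of all genes. Pcdh15 was at 346, 182, 358 and 178 CPM (log2 fold change 2.39, SE 0.15, edgeR adjusted p 1.15e-17), above every library of the other 8 named types but not of cluster 3. Among named types dividing-like cells came next, with up to 150 CPM. Pcdh11x was at 392, 199, 398 and 207 CPM (log2 fold change 2.07, SE 0.16, adjusted p 1.93e-14). For both genes the 2 libraries of batch 1 lay near each other and well above the 2 of batch 2, and genotype made no such split. This class joined 2 clusters, cluster 1 with 339, 169, 264 and 320 cells and cluster 9 with 30, 196, 71 and 284 cells, so cluster 9 was rarer in batch 1, and the part of this in the batch difference was not tested. Pcdh11x is X-linked and only cKO 2 was male, and the part of sex in its level was not tested.

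Astrocyte-like cells were low in many members. 24 of 46 were lower and 8 higher, against 25.9% and 33.2% of all genes, or 59.0% either way. The higher members with the largest log2 fold changes were Pcdhgc5 (1.43, SE 0.29, edgeR adjusted p 3.57e-05), Pcdhgc4 (1.18, SE 0.21) and Pcdh20 (1.12, SE 0.17). Pcdh20 was at 23.3, 26.3, 20.8 and 26.2 CPM and Pcdhgc5 at 9.87, 5.76, 7.19 and 4.93 CPM. Cdh20, a type II cadherin, was at 18.8, 13.0, 27.1 and 16.2 CPM (log2 fold change 1.05, SE 0.23), and Cdh10, another, at 83.2, 63.7, 82.2 and 58.0 CPM (0.69, SE 0.11). Pcdh15, high in the precursors, was at only 3.84, 11.0, 10.8 and 13.1 CPM in astrocyte-like cells (log2 fold change -2.62, SE 0.23). Dividing-like cells had 8 members higher and 19 lower, against 31.0% and 28.6% of all genes. Pcdhgc4 led there (log2 fold change 1.59, SE 0.22), followed by Pcdhgc5 (1.29, SE 0.36) and Pcdh15 (1.11, SE 0.17), while Cdh9 (-2.99) and Cdh8 (-2.33) were lower.

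The beta protocadherins were lowest in astrocyte-like and dividing-like cells and, among named types, most often higher in layer 5 pyramidal tract-like cells. Of 15 beta members that passed the filter, 12 were lower and 0 higher in astrocyte-like cells, against 25.9% and 33.2% of all 12268 genes, with a median log2 fold change of -1.140 beside 0.05 over all genes. In dividing-like cells 11 were lower and 0 higher, against 28.6% and 31.0% of all genes (median -1.62, beside -0.0024). In layer 5 pyramidal tract-like cells 9 were higher and 0 lower, against 25.8% and 24.2% (median 0.75, beside -0.013). Caudal interneuron-like cells had 5 higher, against 20.5% of all genes, upper layer-like cells 3, against 23.0%, and layer 6 corticothalamic-like cells 1, against 17.7%, with none lower in these 3. The other types did not follow a split of neurons from glia. Oligodendrocyte precursor-like cells had 2 lower, against 14.4%, and a median of -0.16. Cajal-Retzius-like cells had 1 lower, against 15.8%, none higher and a median of -0.45, and neuroblast-like cells had none called (median -0.27). Summed over all 21 beta members, the level was 32.3 ± 6.21 CPM (SD, n = 4 libraries) in astrocyte-like cells and 35.0 ± 4.88 in dividing-like cells. It was 133 ± 15.4 CPM in layer 5 pyramidal tract-like cells and 116 ± 16.4 in caudal interneuron-like cells, so the ranges of the 2 pairs did not overlap. Oligodendrocyte precursor-like cells, at 73.7 ± 7.61 CPM, and Cajal-Retzius-like cells, at 55.4 ± 10.2 CPM, lay between them. Pcdhb17 and Pcdhb20 had the most counts. Pcdhb17 was at 13.3, 14.2, 19.1 and 18.9 CPM in layer 5 pyramidal tract-like cells and at 2.88, 5.22, 1.136 and 1.70 CPM in astrocyte-like cells. Pcdhb20 was at 9.40, 11.3, 21.5 and 14.9 CPM in the former and at 3.43, 4.68, 2.46 and 4.93 CPM in the latter.

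Among the gamma protocadherins, 2 C-type members were higher in several types. Pcdhgc4 and Pcdhgc5 were each higher in astrocyte-like, dividing-like and oligodendrocyte precursor-like cells, with log2 fold changes of 1.11 to 1.59. Pcdhgc4 was also higher in neuroblast-like (1.53, SE 0.25) and caudal interneuron-like cells (1.09, SE 0.24) and in cluster 3 (0.81, SE 0.28), while Pcdhgc5 was lower in caudal interneuron-like cells (-1.35, SE 0.54). Pcdhga12, the gamma member with the most counts beside Pcdhgc4, was called higher in none of the named types, and its largest change was in cluster 3 (log2 fold change 1.58, SE 0.20). Counts assigned to gamma members summed to 77.5, 46.1, 77.8 and 44.1 CPM in oligodendrocyte precursor-like cells. In dividing-like cells they summed to 85.2, 47.9, 65.2 and 45.0 CPM. Both libraries of batch 1 lay above both of batch 2 in each type. Reads of the shared last exon may be missing from these sums. The alpha group rested on Pcdha11, with 484 counts, alone in this test, and Pcdha12 came next with 63 counts. It was lower in astrocyte-like cells, at 0 to 0.568 CPM (log2 fold change -3.27, SE 0.60), and higher in upper layer-like cells, at 5.62 to 6.92 CPM (1.13, SE 0.37).

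The 3 unnamed clusters were described by the same test. Cluster 3 had 35 of 46 members higher and 1 lower, against 29.0% and 31.9% of all genes, led by Cdh8 (log2 fold change 3.20, SE 0.15), Pcdha11 (2.47, SE 0.40) and Cdh9 (2.42). A coarser clustering, at resolution 0.5, numbered its clusters anew, and its cluster 3 was not matched to this one. In that cluster these 3 members were at -0.021, -1.72 and -0.51 and none was called higher, which does not test their values here. Cluster 7, with Oprk1 and Slc30a3 among its leading genes, had 17 higher and 6 lower, against 22.0% and 16.0%, led by Cdh9 (2.20), Cdh18 (1.77) and Cdh15 (1.77). Cluster 2 had 2 higher and 18 lower, against 25.0% and 20.2%, and the higher ones were Cdh15 (0.85) and Pcdh1 (0.61). Cdh15 in cluster 2 was not called without cKO 1, without cKO 2 or without the cells of highest doublet score. It was at -0.19 in the cluster that bears the number 2 in the coarser clustering, which was not matched to this one either. Pcdh1 in cluster 2 was not called without control 1, control 2 or cKO 1 either, nor in 4 other alternatives.

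A looser minimum of 15 cells per library, chosen after seeing the data, added 5 types. Endothelial-like cells (267) carried VE-cadherin, Cdh5, at 200, 258, 268 and 271 CPM, with a log2 fold change of 9.37 (SE 0.21, edgeR adjusted p 3.47e-43). Pcdh12, a protocadherin of vascular endothelium, was at 92.3, 68.4, 53.6 and 53.8 CPM in the same cells (log2 fold change 9.08). Pcdh18 followed (3.16), and in all 9 members were higher and 21 lower, against 36.5% and 28.6% of all genes. Medial interneuron-like cells (233) had 12 members higher and 1 lower, against 13.0% and 8.9%, led by Cdh9 at 138, 92.9, 225 and 86.1 CPM (log2 fold change 4.34), Cdh7 (2.69) and Pcdh18 (2.69). In this fit Cdh9 was also higher in layer 6 corticothalamic-like cells (3.14), cluster 3 (2.67), cluster 7 (2.34) and caudal interneuron-like cells (1.31). Oligodendrocyte-like cells (121) had 5 higher and 6 lower, against 12.4% and 10.1%, with Cdh20 (2.19) and Cdh13 (1.33) among the higher. Cluster 18 (186), led by Trhr and Tshz2, had 14 higher and 5 lower, against 14.8% and 11.2%, among them Cdh18 (2.92), Cdh22 (2.56) and Pcdh17 (1.77). Microglia-like cells (105) had 0 higher and 12 lower, against 18.4% and 12.5%.

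The GTE sort gave the same description a separate set of libraries. 7 types passed the minimum of cells, the astrocyte-, oligodendrocyte precursor-, oligodendrocyte- and dividing-like cells and clusters 0, 1 and 4, and 19 members passed the filter. Of these 14 were called in at least 1 type by edgeR, and the share of all genes called in at least 1 type was not counted. In oligodendrocyte precursor-like cells 10 members were higher and 0 lower, against 11.3% and 6.23% of all genes. Pcdh15 led with 243, 517, 613 and 344 CPM (log2 fold change 3.58, SE 0.31, adjusted p 6.15e-14), followed by Pcdh20 (2.11) and Pcdhgc4 (2.02). Pcdhgc4 was not called there without control 1 or without control 2, nor Pcdh20 without control 2. In astrocyte-like cells 7 were higher and 2 lower, against 12.5% and 4.54%, with Pcdh20 (2.28), Pcdhga12 (1.72) and Cdh10 (1.57) at the top and Pcdh15 (-3.10) and Pcdh11x (-0.83) lower. Pcdhga12 was not called with DESeq2, nor without control 1, control 2 or cKO 2. Dividing-like cells had 2 higher, Pcdh15 (1.85) and Pcdh17 (0.70), and none lower, against 5.5% and 1.33%. Pcdh15 there was not called with DESeq2 or without cKO 2, and Pcdh17 was not called without control 2 or without cKO 2. Oligodendrocyte-like cells had 1 higher and 3 lower, against 3.49% and 6.16%, and the higher one, Pcdhgc4 (2.29), was not called in any of the 4 fits without 1 library. Cluster 0 had 0 higher and 3 lower, against 6.55% and 4.02%, and clusters 1 and 4 had no member called.

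3 kinds of cell could be compared across the sorts, over the 19 members tested in both. In oligodendrocyte precursor-like cells 6 were higher in D1Tom and 10 in GTE, and 6 were shared, which is all of the D1Tom calls. The shared members were Pcdh11x, Pcdh15, Pcdh17, Pcdh20, Pcdh9 and Pcdhgc4. In astrocyte-like cells 7 were higher in each sort and 4 were shared, Cdh10, Cdh2, Pcdh10 and Pcdh20, and Pcdh15 was lower in both. In dividing-like cells 6 were higher in D1Tom and 2 in GTE, and both GTE members, Pcdh15 and Pcdh17, were among the 6. No member was called in opposite directions in the same kind of cell. Shared and opposite calls were not counted over all genes, so these counts are not a result about the members. The 2 tables were normalised separately and hold different sets of types, so only directions were set side by side.

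**Figure D3:**
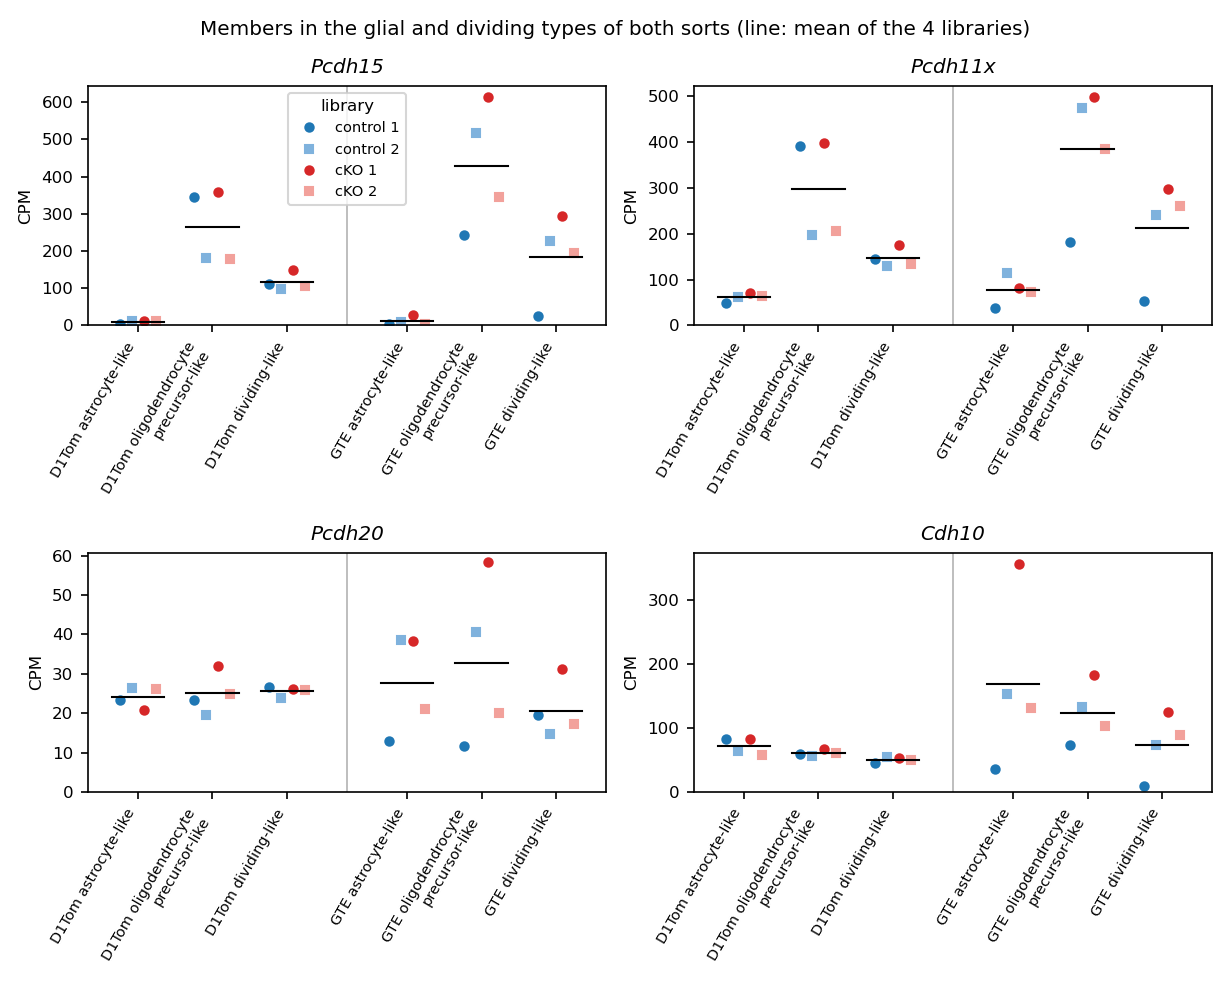
Levels in CPM of Pcdh15, Pcdh11x, Pcdh20 and Cdh10 (panels) in astrocyte-like, oligodendrocyte precursor-like and dividing-like cells of the D1Tom and GTE sorts, 1 point per library. Pcdh15 is lowest in astrocyte-like cells of both sorts, at 3.84 to 13.1 CPM in D1Tom, and highest in the precursors, at 178 to 358 CPM in D1Tom and 243 to 613 in GTE.

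No member was called between genotypes over all D1Tom cells. 69 members were tested and 0 of all 14508 genes were called by edgeR, a background of 0.0%, with 2 members and 320 genes at an unadjusted p under 0.05. DESeq2 called 24 genes and 0 members. The members' median log2 fold change, cKO over control, was -0.12, beside -0.0076 over all genes, and 43 members lay below 0 and 26 above. Pcdhb11 had the smallest p (0.0123, adjusted p 0.998), at 4.65 and 3.89 CPM in control libraries against 1.36 and 1.90 with Cre (log2 fold change -1.30, SE 0.36). Cdh8 was at 33.2 and 25.1 CPM in control libraries against 23.7 and 15.7 with Cre (-0.51, SE 0.20, adjusted p 0.998). Pcdhb17 was at 11.8, 11.7, 10.1 and 6.08 CPM (-0.50, SE 0.24, adjusted p 0.998). The 2 genotypes did not overlap for any of these 3, and none passed the threshold. In the self-test on simulated counts for this comparison, over 14353 genes, 45% of genes changed by a log2 fold of 1 were called. Of those changed by 3, 99% were called, so smaller differences would often be missed. Also called were 23 unchanged genes. Changes were put only into genes above a minimum mean count, so these shares do not hold for low members such as Pcdha4, with 44 counts over all D1Tom libraries.

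Both cKO libraries lay below both controls for 21 of the 69 members, or 30.4%, against 13.7% of all genes, and above both for 4, or 5.8%, against 9.7%. The beta protocadherins held 9 of the 21. Of 20 tested beta members 18 had a log2 fold change below 0, with a median of -0.26, and their summed level was 93.2 and 84.6 CPM in the controls against 78.8 and 61.3 in the cKO libraries. The excitatory neuron marker list, 7 of 7 measured and none at 0, summed to 915 and 909 CPM in control libraries against 736 and 536 with Cre, and the astrocyte list to 2909 and 2981 against 3174 and 4192. Within neuron-like types alone, 52 members were tested and 0 called. Of these, 26 lay above 0 and 26 below, with a median of 0.0025 beside 0.011 over all genes. These types are the named ones, so unnamed clusters were left out, among them cluster 7 with Oprk1 and Slc30a3 among its leading genes. In neuron-like types 11 members had both cKO libraries below both controls and 8 had both above. The share of all genes was not counted there, so these counts cannot be set against a background. Beta members had a median of -0.095 there, with 12 of 18 below 0. Cdh8 in neuron-like cells was at 45.7 and 38.4 CPM in control libraries against 39.8 and 34.0 with Cre (log2 fold change -0.22), so its groups overlapped. The share of neuron-like cells and the level per cell cannot be told apart over all cells.

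**Figure D4:**
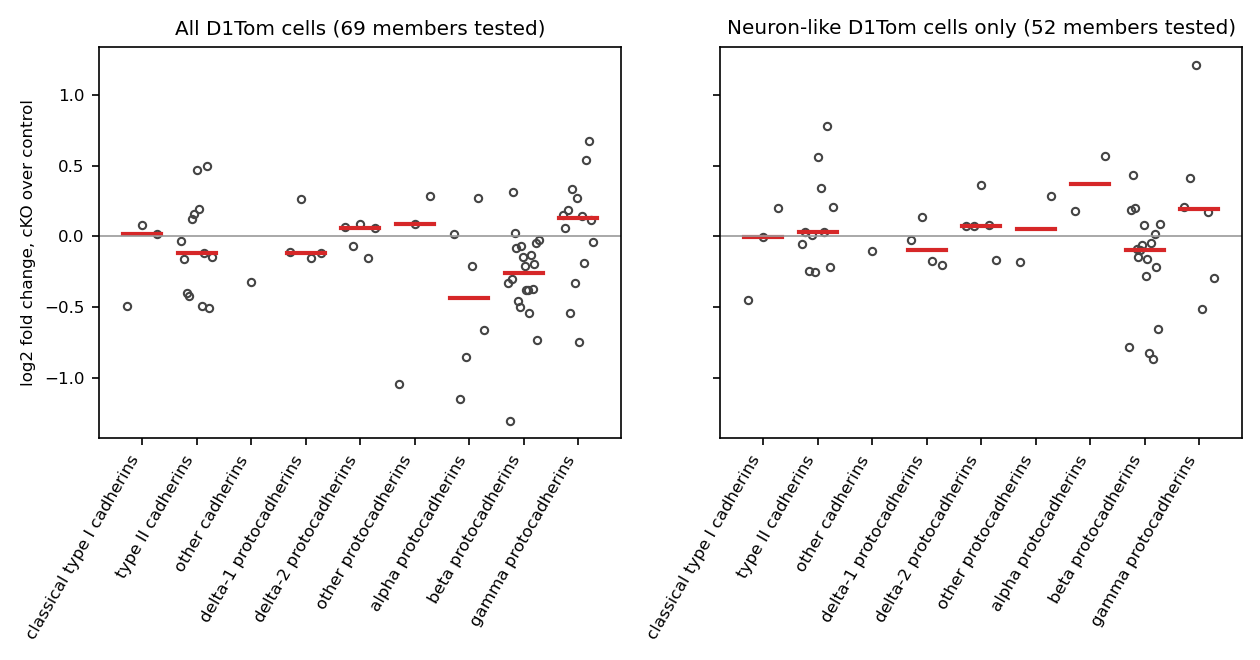
Log2 fold change, cKO over control, of the tested members by structural group (vertical axis) over all D1Tom cells (69 members) and over neuron-like types alone (52 members), 1 point per member. Beta protocadherins lie mostly below 0 over all cells, 18 of 20 with a median of -0.26, and nearer 0 in neuron-like types, with a median of -0.095.

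The D1Tom libraries also separated by batch. Both libraries of batch 1 lay above both of batch 2 for 27 of the 69 members, or 39.1%, against 43.9% of all genes, and below for 8, or 11.6%, against 13.9%. Cdh10, Cdh13, Pcdh10, Pcdh15 and Pcdhgc4 were among the former and Cdh2, Cdh5, Pcdh18 and Pcdh19 among the latter. With batch as a block, 7 members had an unadjusted p under 0.05 and 0 were called, and 1 gene of all was called. In each batch there is only 1 library per genotype, so no test within a batch is possible. Cdh8 and Pcdhb11 were lower in the cKO library of either batch, and Cdh7 in layer 5 pyramidal tract-like cells was higher in either. This follows from their genotypes not overlapping, and they were named for their small p, so it adds no evidence.

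Over all GTE cells no member was called either. 39 members were tested, 4 of 12042 genes were called by edgeR, or 0.0332%, and 4 members had an unadjusted p under 0.05, while DESeq2 called 0 members. Pcdhb17 was at 4.10 and 12.1 CPM in control libraries against 4.93 and 2.12 with Cre (log2 fold change -1.58, SE 0.67, adjusted p 0.888). Cdh10 was at 16.1 and 70.1 against 229 and 50.6 CPM (1.24, SE 0.56, adjusted p 0.896), and Cdh9 at 3.78 and 13.7 against 1.58 and 5.66 CPM (-1.37, SE 0.66, adjusted p 0.942). The genotypes overlapped for all 3, and GTE cKO 1, with 71.4% glia-like cells, held the highest Cdh10 value. Both cKO libraries were below both controls for 2 members, 5.13% against 6.67% of all genes, and above for 6, 15.4% against 19.6%. The members' median was 0.17, beside -0.047 over all genes, and turned negative without control 1 (-0.11) or without cKO 1 (-0.098). The interaction of genotype and sort was tested for 62 members, and 0 of 14026 genes were called, or 0.0%, with 2 members at an unadjusted p under 0.05. Pcdhb15, Pcdhb5 and Pcdhga7 had the smallest p (log2 differences 7.66, -2.13 and -3.01, adjusted p 0.941 each).

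Within D1Tom types 392 tests of members by edgeR gave 0 calls, with 15 at an unadjusted p under 0.05. By DESeq2 589 tests of members gave 0 calls, with 5 at an unadjusted p under 0.05. Of all genes 0.0% were called in every type except cluster 3, with 0.0111%. Cdh7 in layer 5 pyramidal tract-like cells had the smallest p. It was at 30.4 and 18.1 CPM in control libraries against 86.7 and 37.9 with Cre, from 55, 37, 145 and 38 counts, so the genotypes did not overlap (log2 fold change 1.38, SE 0.37, unadjusted p 0.00407, adjusted p 0.998). Over all types together, fits with the batch as a block called 315 of 125265 tests of all genes, beside 1 without the block. With the block the adjusted p of Cdh7 in these cells was 0.00446 (log2 fold change 1.31). It was 0.00031 without a filter on low counts, 0.0409 without control 1 and 5.13e-06 without cKO 2. Over 11 alternatives its adjusted p lay between 5.13e-06 and 1, under 0.05 in 4. cKO 1 held 145 of its counts, and without that library it was not called.

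The other types gave no member near the threshold. In layer 6 corticothalamic-like cells Cdh12 was at 6.34 and 8.18 CPM in control libraries against 17.8 and 17.1 with Cre (log2 fold change 1.25, SE 0.45, unadjusted p 0.0215, edgeR adjusted p 0.998), from 15 to 20 counts each. In upper layer-like cells Cdh4 was at 37.5 and 30.8 against 56.5 and 44.1 CPM (0.55, SE 0.19), and in caudal interneuron-like cells Cdh6 at 31.6 and 33.9 against 19.01 and 21.8 CPM (-0.69, SE 0.28). The genotypes did not overlap for these 3 members, and an adjusted p near 1 does not show that they were alike. Astrocyte-like cells had Cdh22 at 1.78 and 2.34 against 6.06 and 3.74 CPM (1.26). This class joined clusters 0, 4 and 8, and cluster 0 held 624, 118, 365 and 249 of its cells and cluster 4 held 45, 234, 141 and 442, in the order of libraries above, and the part of this was not tested. Cajal-Retzius-like cells had Cdh13 at 18.1 and 27.4 against 42.7 and 39.5 CPM (0.85), dividing-like cells Pcdh8 at 14.2 and 12.3 against 17.7 and 22.1 CPM (0.62), and the precursors Pcdha11 at 5.41 and 4.07 against 2.88 and 1.25 CPM (-1.21). In neuroblast-like cells Cdh20 had no count in either control and 10.1 and 8.75 CPM in the cKO libraries. With 50 and 30 control cells, a count of 0 allows up to 9.58 and 8.78 CPM (3 counts per library). This limit covers counting error only and takes counts as single molecules, which the deposited counts do not look like. The cKO values lie close to it (unadjusted p 0.0146, edgeR adjusted p 0.732). In the unnamed clusters the smallest p belonged to Pcdh18 in cluster 2 (2.52), Pcdha11 in cluster 3 (1.45) and Pcdhb11 in cluster 7 (-2.07).

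Within GTE types 91 tests by edgeR gave 0 calls, with 6 at an unadjusted p under 0.05. By DESeq2 181 tests gave 0 calls. Of all genes 0.0% were called in each type except the precursors, with 0.0128%. Cdh4 in oligodendrocyte precursor-like cells was at 11.6 and 7.74 CPM in control libraries against 35.5 and 59.8 with Cre (log2 fold change 2.13, SE 0.71, unadjusted p 0.00368, edgeR adjusted p 0.999). In D1Tom the same gene in the same kind of cell was at 47.2, 39.1, 48.3 and 34.3 CPM, with overlapping genotypes. Pcdh15 in cluster 1 was at 2.53 and 15.1 against 237 and 12.7 CPM (3.36) and Cdh10 in cluster 0 at 4.04 and 17.1 against 431 and 8.89 CPM (3.41), and in both cKO 1 alone stood above the other 3 libraries. Both were called without cKO 2, where cKO 1 is the only cKO library and more of all genes were called as well. Pcdh15 in cluster 1 was also called without a filter on low counts (0.0129) and with the crossed pairing (0.0177), 3 of 12 alternatives in all, and Cdh10 in cluster 0 in 1 of 12. Cdh10 also had the smallest p in cluster 4 (2.89), astrocyte-like cells (1.137) and dividing-like cells (1.25), and Pcdh17 in oligodendrocyte-like cells (1.65). Without cKO 2 Cdh10 was called in cluster 4 (adjusted p 0.00102), and without control 2 in dividing-like cells (0.0317).

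Genes that work with cadherins were followed from 3 lists. Over all D1Tom cells 0 of 14 tested catenins and junction partners, 0 of 13 other members of the cadherin superfamily and 0 of 14 regulators of protocadherin promoters and cadherin cleavage were called, and in GTE 0 of 13, 0 of 10 and 0 of 13. Pvrl3, the adhesion protein nectin-3, was at 75.6, 77.4, 70.5 and 56.8 CPM (log2 fold change -0.21), and Ctnnd1, p120 catenin, which holds cadherins at the membrane, had 0.26. Celsr1, a large cadherin of planar cell polarity, was at 2.501, 3.78, 5.36 and 6.08 CPM (0.93), and Clstn2, a calsyntenin, at 60.03, 65.1, 53.3 and 39.2 CPM (-0.39). Among the regulators the smallest p belonged to Stag1, a cohesin subunit (0.27). Between D1Tom types, of the 14 regulators 9 were higher in dividing-like cells (median 0.74), against 31.0% of all genes, and 9 in neuroblast-like cells (median 0.65), against 23.2%, while 8 were lower in layer 5 pyramidal tract-like cells (median -0.39), against 24.2%. Other members of the cadherin superfamily were higher in layer 5 pyramidal tract-like cells for 7 of 12, against 25.8%, and lower in astrocyte-like cells for 7 of 12, against 25.9%. These types were picked after their counts were seen. Immediate early genes of dissociation differed by library, and Fosb was at 70.9 CPM in D1Tom control 1 and at 2.51 to 2.64 in the other 3.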

How the data were processed

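Sorted cells of mouse frontal isocortex at postnatal day 7 were profiled by 10x Chromium 3′ single-cell RNA sequencing, in 4 groups of 2 libraries taken from the labels. For either sort the authors deposited counts of genes by cells, with 11494 and 11382 cells, and per cell the fraction of mitochondrial counts, which was recomputed from the deposited table within rounding error. Per the submitters' processing notes the tools were bcl2fastq 2.17.1.14, Cell Ranger 2.1.1, FastQC 0.11.5, UMI-tools 0.5.4, STAR 2.5.2b, featureCounts (Subread 1.6.2) and SAMtools 1.6, with the builds mm10 and GRCm38.p6 and no roles given. Values of 2 were 0.307 to 1.69 times as frequent as values of 1, depending on the library, so the deposited counts do not look like 1 count per molecule. No Poisson interval was used, except that the limit of 3 counts given for Cdh20 in neuroblast-like cells is of that kind. Gene positions and promoters come from RefSeq, and exons from GENCODE M21.

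Cells with at least 500 counts were clustered (scanpy 1.11.5, leidenalg 0.10.2, Python 3.11.15) on 2000 variable genes, 30 principal components and 20 neighbours at Leiden resolution 1, without the members, Foxp2, dopamine receptor genes, and sex-linked, dissociation, mitochondrial, ribosomal and haemoglobin genes. This left out 143 GTE cells. A cluster was named from 1 of 23 marker lists where at least 3 markers were 2-fold over the other cells. The list's median fold also had to reach 2, with no other list holding more of the 10 leading genes. A name was dropped at a median under 2.5 with fewer than 2 leading markers. It was also dropped without a leading marker where counts per cell were low or mitochondrial and ribosomal genes led. Upper layer-like cells (median 2.29, 5 of 8 markers) and astrocyte-like cluster 4 (2.24, 5 of 9) kept their names. These names are a reconstruction and may not match those of the authors. An automatic doublet caller marked 0 to 6 cells per library, which did not work, so all cells were kept and an alternative dropped the top doublet scores (0.8% for each 1000 cells in a library). Counts were summed per library and type and tested with edgeR 4.0.16 (R 4.3.3), quasi-likelihood, TMM factors, its default filter and Benjamini-Hochberg adjustment over all genes at 0.05. Each sort was fitted alone, 2 libraries against 2. Alternatives were DESeq2 1.42.0, RLE factors, no filter, a replicate block, each library left out, resolution 0.5, doublets removed, neuron-like types alone, and, added after seeing the data, 15 cells per library and a crossed pairing in GTE. In D1Tom the labels give same-numbered libraries a shared batch, and their deviations correlated at 0.500 over 14508 genes, so the numbers pair them. Simulated counts were tried for the genotype comparison over all D1Tom cells and for astrocyte-like cells against the other D1Tom types only.

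Members named in the text are, per type, the 3 with the largest fold change among those called higher, the 3 with the smallest p over all cells and in the interaction, the 1 with the smallest p within a type, and the 2 with the most counts per structural group. Further members are named where a sentence compares types, and were picked after their values were seen. The members, marker lists and gene lists were chosen with earlier results of these data known. Of the 3 lists of related genes, those with the smallest p are named, and 1 of them is not reported here.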

Additional observations from a re-analysis of the deposited data

How the results depend on the processing

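Over all cells and in the interaction 0 members were called under any alternative that was run. Within types the count of members called was 0 and became 1 in D1Tom without a filter on low counts and 1 with the replicate block (Cdh7 in layer 5 pyramidal tract-like cells in both), and 0 to 5 without 1 library. The 5, without control 2, were Pcdh15 in astrocyte-like cells, Pcdh17, Pcdh19 and Pcdh7 in Cajal-Retzius-like cells and Pcdh11x in cluster 2, and each of these fits assumes that the lone library varies like the others. In GTE the count became 2 without a filter, 1 with the crossed pairing, and 0 to 12 without 1 library, with 2 without control 2 and 12 without cKO 2. Over all genes these fits also called more. In D1Tom 1 of 125265 tests within types was called, 254 of 178098 without a filter, 315 with the block and 100 to 2012 without 1 library, with 2012 of 131443 without control 2. In GTE 1 of 42806 was called, 28 of 90474 without a filter, 9 with the crossed pairing and 5 to 1530 without 1 library, with 307 of 49612 without control 2 and 1530 of 48021 without cKO 2. The cause was not tested. The replicate block changed no other call of a member. In GTE same-numbered libraries deviated in opposite directions (correlation -0.348 over 12042 genes), the numbers were not taken to pair them, and the crossed pairing called 24 genes over all cells, beside 4 without it and 0 with the numbers as given.

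Over all cells the count of genes called moved too. In D1Tom it was 0 over all cells and 24 with DESeq2, 1 with the block, 6 without control 2 and 5 without cKO 1. In GTE it was 4 and became 18 without a filter, 2 with DESeq2, 27 without cKO 2, 8 without control 2, 8 without cKO 1 and 1 without control 1. The count of members called in at least 1 type stayed within 1.5 times of 46 in D1Tom and of 14 in GTE in all alternatives run. Of the values of single members, 4 had the other sign, all at resolution 0.5. Unnamed clusters were numbered anew there and not matched, so these values do not show a reversal in the same cells. These were Cdh15 in cluster 2 (-0.19) and Cdh8 (-0.021), Pcdha11 (-1.72) and Cdh9 (-0.51) in cluster 3. A further 651 kept their direction and side of the threshold, 28 lost the threshold and 10 passed it. The neuron-like alternative was not run in GTE, whose libraries held 11 to 89 such cells. Depth limits the low members, since 23 of the 92 did not pass the filter over all D1Tom cells.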
